A study of Mus musculus with 6 samples.

Results

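The genes described here are 41 mouse genes of the interferon and RNA-sensing system, taken by name from a list drawn up with earlier results of these data known. All 41 were found among the 41388 genes of the count table, and they were grouped by role into 6 RNA sensors, 8 members of the oligoadenylate synthetase (OAS) family, 9 signalling genes, 14 effectors and 4 genes of antigen presentation. Expression was measured by poly(A) RNA-seq in induced pluripotent stem cells (iPSCs), which are fibroblasts reprogrammed to an embryonic-stem-cell-like state. Both genotypes came from C57BL/6 littermate embryos at day E13.5: fibroblasts that were miR-34a-/- (here knockout) or wild type were given retroviral Oct4, Sox2 and Klf4, and single colonies were picked and grown on irradiated embryonic fibroblast feeders. Each genotype had 3 independently derived lines with 1 library each, so every group of 3 stands for 3 picked clones. No interferon, virus or RNA ligand is named in the labels, so the levels are those of cells without a stated stimulus.

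Cells detect foreign or misplaced RNA with cytosolic helicases such as RIG-I (encoded by Ddx58) and MDA5 (Ifih1), which signal through the mitochondrial adaptor MAVS to the transcription factors IRF3 and IRF7 and to the interferon genes. Secreted type I interferon binds a receptor built from IFNAR1 and IFNAR2, and a complex that contains STAT2 and IRF9 then switches on interferon-stimulated genes through a promoter motif, the interferon-stimulated response element (ISRE). OAS proteins make short 2′-5′ linked oligoadenylates on binding double-stranded RNA, which activate the nuclease RNase L. Mouse pluripotent cells are known to make little interferon and to respond weakly to it.

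The libraries held 8432597 to 29654855 counts, and knockout replicate 3 and wild-type replicate 2 were the shallowest of their groups. Levels are given as CPM, a gene's counts relative to its library's total after adjustment by edgeR's TMM factors, and 3 counts correspond to 0.107 to 0.375 CPM depending on the library. A gene was tested if it passed edgeR's low-count filter (about 0.564 CPM in at least 3 libraries), and it was called at an adjusted p below 0.05 over all 14717 genes tested. Of those genes, 26.5% were called higher in the knockout and 24% lower, and the median log2 difference was 0.01. The deleted hairpin Mir34a had at most 2 counts in any library of either genotype, so these poly(A) libraries did not check the genotype. Fibroblast markers were lower in knockout libraries (10 of 13 tested called lower, 2 higher; 14 markers summing to 447 to 529 CPM against 650 to 884) and pluripotency markers higher (9 of 12 called higher, 1 lower; sums of 9069 to 9539 CPM against 7502 to 7556). The 8 leukocyte markers summed to 245 to 265 CPM against 117 to 131, mostly Laptm5. Of the 4 tested, Laptm5, Cd74 (log2 1.73) and Cd68 (log2 0.66) were called higher and Coro1a lower, and the defining marker Ptprc had 3 counts in all knockout libraries and 2 in all wild-type libraries. The part of these marker differences in the results below was not tested, and in bulk RNA fewer cells of a type and less RNA per cell cannot be told apart.

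The interferon and RNA-sensing genes did not move as 1 block. Of the 41 genes, 33 were tested, and 9 of these were called higher in the knockout and 8 lower, which is 27.3% and 24.2% against 26.5% and 24% over all genes tested. Their median log2 difference was 0.07 and the range ran from -1.95 to 1.85. The 3 knockout libraries and the 3 wild-type libraries did not overlap for 17 of the 33 genes (51.5%, against 56% of all genes tested). A difference of 2-fold or more was called for 7 of the 33, while 10.3% of all genes tested were called at that size. The shares called in each direction are near the background. Of the 7 genes with a 2-fold difference, 4 belong to the Oas1 to Oas3 cluster. Isg15 and Psmb8, also among the 7, had knockout means of 0.206 and 0.495 CPM, below the 0.564 CPM of the low-count filter. Psmb8 passed it mainly, and Isg15 wholly, through wild-type libraries, so their calls at this size add no support. The direction differed between roles: the tested OAS genes were called higher in 5 of 6 cases, the signalling genes were not called in 8 of 9, and the effectors were called lower in 5 of 10. Of these lower effectors, Isg15 passed the low-count filter through wild-type libraries alone.

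**Figure D1:**
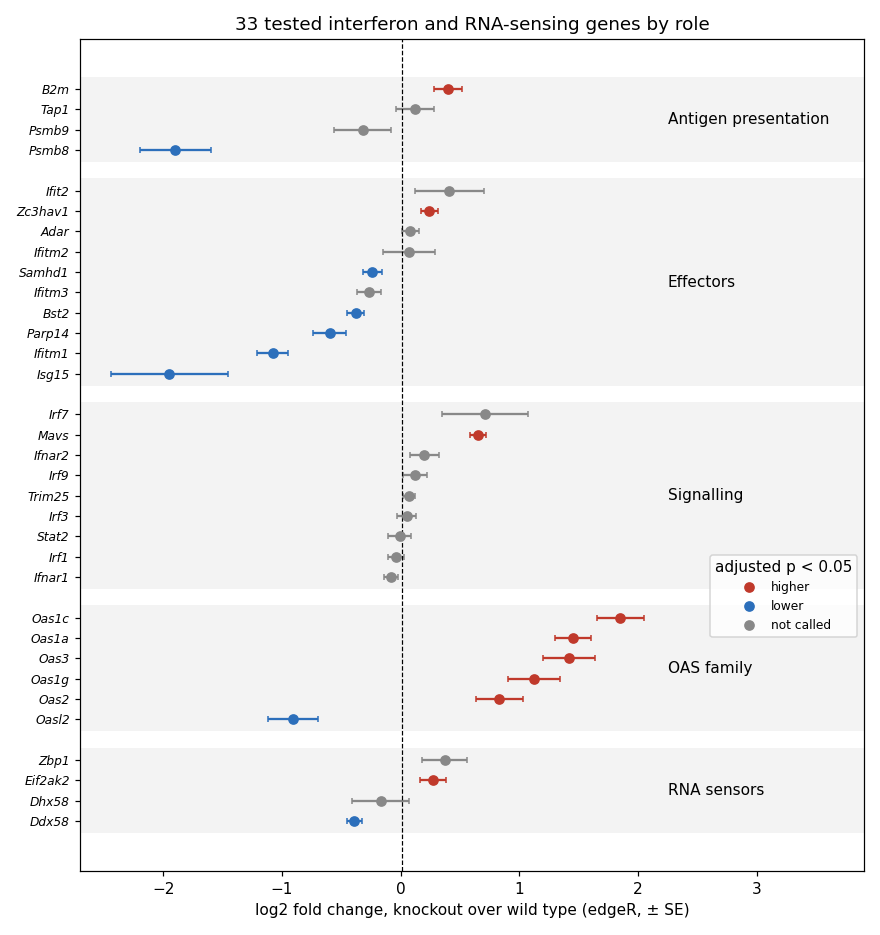
Log2 difference between knockout and wild type (x axis, points with ± SE from edgeR) for the 33 tested genes, grouped by role; red and blue mark genes called higher and lower at an adjusted p below 0.05, and the dashed line is the median of all genes tested. The 5 red OAS genes lie between 0.83 and 1.85, Oasl2 at -0.91, and 8 of the 9 signalling genes are grey.

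The clearest shared movement was at the Oas1 to Oas3 cluster. Its 6 listed genes lie within 177.2 kb of chromosome 5 (mm10, chr5:120730333-120907521), and the 5 that were tested, all on the minus strand, were all called higher in the knockout, with a median log2 difference of 1.42. Summed over the 8 OAS-family genes, the level was 26.9, 27.4 and 28.3 CPM in knockout replicates 1 to 3 against 12.2, 12.4 and 13.9 CPM in wild type.

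The promoters of 4 of these genes are shown because 3 of them carry the same ISRE-type stretch. Each runs from 250 bases before to 50 bases after the annotated start, 5′ to 3′ on the gene's own strand (RefSeq, GRCm38.p6), with matches to the motif GAAANNGAAA on either strand in capitals. The windows are chr5:120907476-120907775 for Oas1a, chr5:120812465-120812764 for Oas1c, chr5:120887564-120887863 for Oas1g and chr5:120777610-120777909 for Oas3, all on the minus strand.
Oas1a: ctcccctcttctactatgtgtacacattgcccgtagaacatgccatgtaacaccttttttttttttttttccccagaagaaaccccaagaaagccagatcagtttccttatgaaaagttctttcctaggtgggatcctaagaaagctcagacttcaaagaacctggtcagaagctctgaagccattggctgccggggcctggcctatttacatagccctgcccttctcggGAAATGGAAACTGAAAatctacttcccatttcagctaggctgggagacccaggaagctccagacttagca
Oas1c: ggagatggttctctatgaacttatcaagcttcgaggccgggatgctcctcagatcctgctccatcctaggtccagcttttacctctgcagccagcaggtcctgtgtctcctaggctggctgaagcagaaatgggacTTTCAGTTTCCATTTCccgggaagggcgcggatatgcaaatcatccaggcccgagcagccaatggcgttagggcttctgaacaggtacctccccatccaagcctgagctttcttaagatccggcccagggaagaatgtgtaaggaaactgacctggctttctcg
Oas1g: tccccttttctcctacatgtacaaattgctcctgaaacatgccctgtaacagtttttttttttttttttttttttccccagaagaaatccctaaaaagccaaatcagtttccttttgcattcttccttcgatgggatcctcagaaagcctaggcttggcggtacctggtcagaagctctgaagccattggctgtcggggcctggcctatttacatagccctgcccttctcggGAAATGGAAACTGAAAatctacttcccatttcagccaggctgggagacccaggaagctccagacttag
Oas3: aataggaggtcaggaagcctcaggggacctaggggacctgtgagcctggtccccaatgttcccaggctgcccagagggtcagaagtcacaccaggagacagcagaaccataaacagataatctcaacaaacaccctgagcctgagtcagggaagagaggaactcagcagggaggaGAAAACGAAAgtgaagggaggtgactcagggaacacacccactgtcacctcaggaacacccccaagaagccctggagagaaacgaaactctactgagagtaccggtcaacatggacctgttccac
Oas1a, Oas1c and Oas1g hold the identical 16 bases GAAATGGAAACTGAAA, on the coding strand in Oas1a and Oas1g and on the other strand in Oas1c. Only 5 genes with a RefSeq promoter entry carry those 16 bases in this window, namely these 3 with Apol9a and Apol9b. The stretch begins 20 bases before the start in Oas1a, 18 before it in Oas1g and 114 before it in Oas1c, while Oas3 has a single 10-base match that begins 75 bases before its start. A match describes letters only and is not a measured binding site.

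Oas1a, the most abundant OAS gene per exon length in both genotypes, was at 9.38, 9.08 and 9.81 CPM in the knockout libraries and at 2.87, 3.25 and 4.25 CPM in the wild-type libraries. The lowest knockout library was above the highest wild-type library. The means were 9.42 ± 0.365 and 3.46 ± 0.714 CPM (SD, n = 3 each), a fitted 2.73-fold difference (log2 1.45 ± 0.15, SE; edgeR adjusted p = 1.7e-07). Oas1c had the largest increase among the 33 tested genes, at 5.07, 5.29 and 5.64 CPM in the knockout against 1.15, 2.13 and 1.55 CPM in wild type (3.60-fold, log2 1.85 ± 0.20; edgeR adjusted p = 3e-07). Oas1g was at 2.64, 2.72 and 3.31 CPM against 1.35, 0.876 and 1.42 CPM, again without overlap (log2 1.12 ± 0.22; edgeR adjusted p = 0.00035). Of all 50-base windows in the transcripts, 42.4% were unique to the gene for Oas1a and 54.3% for Oas1g, which share sequence with each other, and 84.9% for Oas1c. The sources used here do not say how the authors' counting assigned reads that fit several copies, so the split between Oas1a and Oas1g is uncertain.

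Oas2 and Oas3, which encode larger synthetases with several OAS units, have almost wholly unique transcripts (100% and 99.5% of 50-base windows). Oas3 was at 3.50, 4.58 and 3.56 CPM in the 3 knockouts and 1.68, 0.751 and 1.61 CPM in wild type, so the lowest knockout library stood above every wild-type library (2.68-fold, log2 1.42 ± 0.22; edgeR adjusted p = 3.1e-05). Oas2 was at 3.85, 3.04 and 2.82 CPM against 2.01, 1.75 and 1.68 CPM (1.78-fold, log2 0.83 ± 0.20; edgeR adjusted p = 0.0019). Oas1b, which is truncated by a stop codon in C57BL/6 and many other laboratory strains, did not pass the low-count filter. It had 12, 12 and 10 counts in the knockout libraries and 6, 0 and 0 in wild type, a depth-corrected ratio of 4.86 (95% exact Poisson interval 2.02 to 14.2, counting error only). With no low-count filter, edgeR called Oas1b higher in the knockout (adjusted p = 0.00073).

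At a separate site on chromosome 5, the OAS-like gene Oasl2 went the other way. Oasl2, whose product is a ubiquitin-like antiviral relative of OAS, was at 1.52, 1.72 and 1.23 CPM in knockout lines and at 2.58, 3.38 and 3.16 CPM in wild type. Every knockout library was below every wild-type library (1.88-fold lower, log2 -0.91 ± 0.21; edgeR adjusted p = 0.0013). Oasl1, with 27 counts in all knockout libraries and 13 in all wild-type libraries, was not tested. Its ratio of 1.78, in the direction of the cluster, had an interval of 0.888 to 3.76, and its libraries did not overlap (0.355, 0.501 and 0.736 CPM against 0.328, 0.250 and 0.193 CPM).

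**Figure D2:**
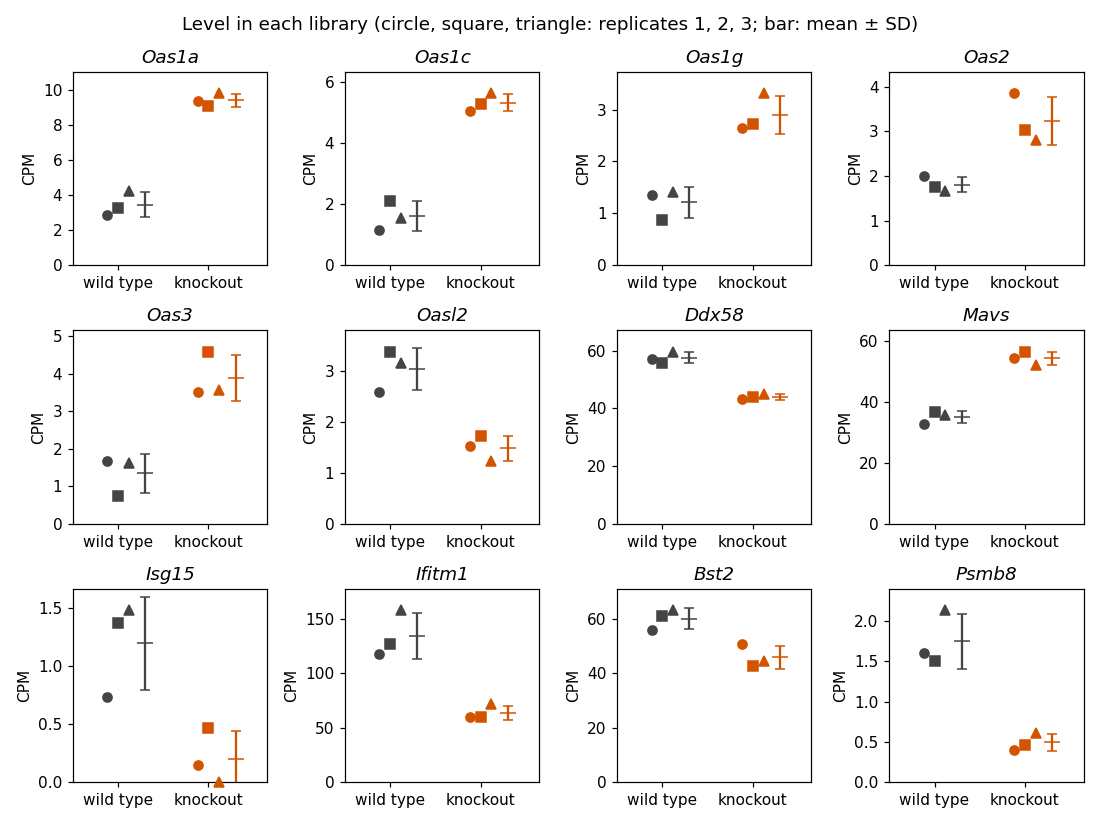
CPM in each library (y axis, linear from 0; circles, squares and triangles are replicates 1, 2 and 3, bars are the mean ± SD of 3) for 12 of the genes in wild type (grey) and knockout (orange). The 5 Oas1 to Oas3 genes and Mavs are higher in every knockout library, while Oasl2, Ddx58, Isg15, Ifitm1, Bst2 and Psmb8 are lower in every one. All 12 are called genes whose libraries do not overlap between genotypes. Such a gap was seen for 51.5% of the 33 tested genes and 56% of all genes tested.

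Genes next to the cluster were examined because neighbours can move together. Within 300 kb of the cluster on either side, 14 other genes were tested, and 7 were called higher, 1 lower and 6 not called, with a median log2 difference of 0.20. For comparison, 26.5% of all genes tested were called higher and 24% lower. Oas1d, a further Oas1 copy just beyond the Oas1a end that was not on the list, was at 0.782 CPM in the knockout against 0.210 CPM in wild type (log2 1.80 ± 0.43; edgeR adjusted p = 0.0017). On the Oas2 side, Dtx1 and Rasal1 were higher by 0.61 and 0.72 on the log2 scale, and on the Oas1a side Rph3a was lower (log2 -2.14; 0.151 against 0.923 CPM) while Ptpn11 had a log2 difference of 0.00. The 5 listed OAS genes had larger positive log2 differences than every tested neighbour except Lhx5 (2.10, from 0.294 to 1.28 CPM) and Oas1d. The difference between these groups was not tested. The wild-type means of Oas1d and Lhx5 and the knockout mean of Rph3a lay below the 0.564 CPM of the low-count filter. These genes passed it mainly through the genotype in which they are higher, so their calls add no support.

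**Figure D3:**
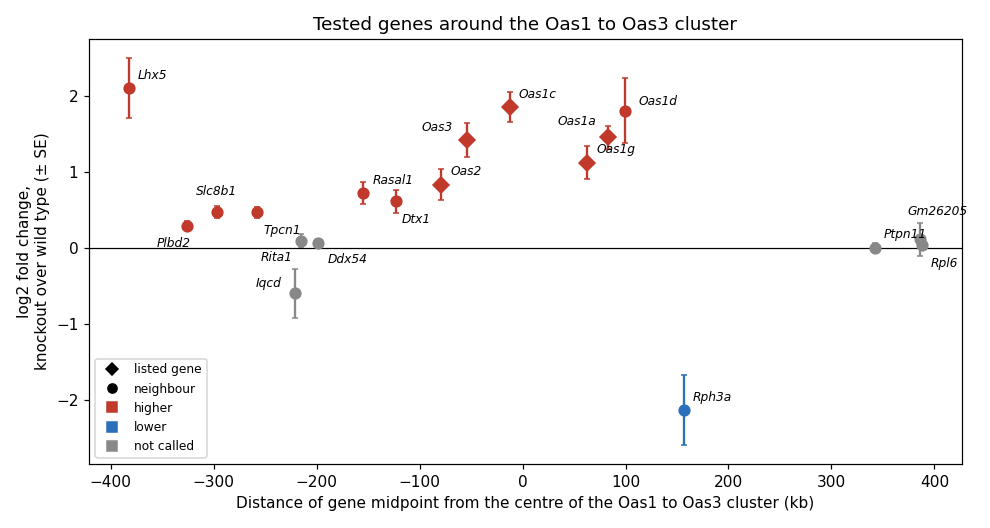
Log2 difference between knockout and wild type (y axis, ± SE) against the distance of the gene midpoint from the centre of the Oas1 to Oas3 cluster (x axis, kb) for 19 tested genes; diamonds are the 5 listed genes and circles the 14 neighbours. The diamonds lie between 0.83 and 1.85, and Rph3a, beside the cluster, lies at -2.14.

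Among the RNA sensors 1 gene was called higher, 1 lower and 2 were not called (25.0% in each direction, against 26.5% higher and 24% lower over all genes tested). Ddx58, encoding the 5′-triphosphate RNA sensor RIG-I, was the most abundant, at 43.1, 43.9 and 45.0 CPM in the knockout and 57.2, 55.8 and 59.6 CPM in wild type. The groups were well apart, and the difference was small (1.31-fold lower, log2 -0.39 ± 0.06; edgeR adjusted p = 3e-05). Eif2ak2, encoding the double-stranded RNA-activated kinase PKR, was at 14.1, 14.1 and 15.9 CPM against 12.1, 10.01 and 13.3 CPM (log2 0.27 ± 0.11; edgeR adjusted p = 0.043). That call was lost in 8 of 14 alternative analyses, where its adjusted p reached 0.16. Zbp1, a sensor of Z-form nucleic acid, was at 4.41, 3.25 and 3.68 CPM against 2.62, 3.63 and 2.84 CPM, and its groups overlapped (log2 0.37 ± 0.19; edgeR adjusted p = 0.10). Dhx58, encoding the RIG-I-like regulator LGP2, was at 1.37, 1.32 and 1.47 CPM against 1.56, 1.13 and 1.74 CPM and was not called (log2 -0.17 ± 0.24; edgeR adjusted p = 0.59). Ifih1, the MDA5 gene, had 5 counts over the knockout libraries and 8 over the wild-type libraries, and the endosomal sensor Tlr3 had 7 and 4, so a difference in either was not detectable at this depth.

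Mavs was the only signalling gene of the 9 that was called (11.1%, against 50.5% of all genes tested). This adaptor, through which RIG-I and MDA5 signal, stood at 54.6, 56.6 and 52.2 CPM in knockout lines and at 32.9, 36.8 and 35.8 CPM in wild type. Every knockout library was above every wild-type library (1.57-fold higher, log2 0.65 ± 0.07; edgeR adjusted p = 1.8e-07), and the sensor Ddx58 and its adaptor Mavs were called in opposite directions. Trim25, a ubiquitin ligase that acts on RIG-I and the most abundant signalling gene, was at 211, 191 and 199 CPM against 198, 190 and 186 CPM and was not called (log2 0.07 ± 0.05; edgeR adjusted p = 0.31).

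The 3 listed interferon regulatory factors described next were not called. Irf3, the constitutively made factor activated by MAVS, was at 31.6, 35.2 and 31.9 CPM in the 3 knockouts and 32.3, 28.0 and 34.5 CPM in wild type (log2 0.05 ± 0.08). Irf1 was at 40.8, 36.9 and 34.8 CPM against 37.4, 37.0 and 41.5 CPM (log2 -0.04 ± 0.07). Irf7, itself induced by interferon, was near the detection floor with 15, 41 and 5 counts against 14, 5 and 12 (log2 0.71 ± 0.36; edgeR adjusted p = 0.10). Knockout replicate 2 held most of the Irf7 counts of its group.

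The receptor and its transcription complex were likewise not called. Ifnar1 was at 44.4, 45.3 and 45.9 CPM against 48.1, 46.8 and 47.6 CPM, a gap without overlap but of only 1.05-fold (log2 -0.08 ± 0.06; edgeR adjusted p = 0.32). Ifnar2 was at 8.01, 8.19 and 7.23 CPM against 6.64, 8.01 and 6.57 CPM (log2 0.20 ± 0.12; edgeR adjusted p = 0.20). Stat2 was at 16.9, 18.2 and 13.7 CPM against 16.3, 15.6 and 18.2 CPM (log2 -0.01 ± 0.10), and Irf9, its DNA-binding partner, at 17.1, 21.5 and 17.3 CPM against 18.1, 15.6 and 17.8 CPM (log2 0.12 ± 0.10). For both genes the libraries of the genotypes overlapped. The sum over the 9 signalling genes was 403 to 426 CPM in the knockout and 379 to 390 CPM in wild type.

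Of the 10 effectors tested, 5 were called lower in the knockout and 1 higher, against 24% and 26.5% of all genes tested. Whether this small group differs from all genes was not tested. Of the 5, Isg15 rests on few counts, as given next, and Samhd1 lost its call in 3 of 14 alternative analyses. Isg15, a ubiquitin-like protein attached to other proteins after interferon, had 3, 13 and 0 counts in the knockout libraries and 18, 11 and 23 in wild type, or 0.152, 0.465 and 0 CPM against 0.738, 1.38 and 1.48 CPM. It passed the low-count filter only through its wild-type libraries, so its log2 difference of -1.95 ± 0.49 (edgeR adjusted p = 0.0035) rests on few counts. Its promoter (chr4:156200769-156201068, minus strand, RefSeq GRCm38.p6) is shown for comparison with the OAS promoters. This promoter holds 3 overlapping matches to GAAANNGAAA, in capitals, within 22 bases.
Isg15: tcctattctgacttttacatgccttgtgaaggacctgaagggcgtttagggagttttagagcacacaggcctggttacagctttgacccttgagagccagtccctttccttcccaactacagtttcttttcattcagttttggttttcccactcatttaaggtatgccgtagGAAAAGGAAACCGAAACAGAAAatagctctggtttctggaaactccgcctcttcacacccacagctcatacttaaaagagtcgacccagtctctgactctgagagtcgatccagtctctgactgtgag
The run of matches begins 78 bases before the start. Isg15 lies 6.13 Mb from the deleted Mir34a on chromosome 4. Of 13 tested genes within 300 kb of Isg15, 1 was called higher and 3 lower (median log2 -0.09), against 26.5% and 24% of all genes tested.

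Ifitm1, Ifitm2 and Ifitm3, neighbouring genes on chromosome 7 that encode membrane proteins blocking virus entry, did not move together. Ifitm1 was at 60.2, 60.0 and 71.5 CPM in knockout lines and at 117, 127 and 158 CPM in wild type, so every knockout library was below every wild-type library (2.12-fold lower, log2 -1.08 ± 0.13; edgeR adjusted p = 0.00029). Ifitm2 was at 187, 177 and 235 CPM against 156, 173 and 241 CPM (log2 0.07 ± 0.22; edgeR adjusted p = 0.84). Ifitm3 was at 181, 151 and 207 CPM against 205, 218 and 224 CPM (log2 -0.27 ± 0.10; edgeR adjusted p = 0.066), and 6 of 14 alternative analyses called it lower. Ifitm2 and Ifitm3 were the most abundant of the 41 genes per exon length, at 305 and 266 CPM per kb in the knockout and 290 and 318 CPM per kb in wild type. Only 51.5% of the 50-base windows of Ifitm2 were unique to it.

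Bst2, encoding tetherin, which holds budding virus at the cell surface, was at 50.8, 42.7 and 44.4 CPM in the 3 knockouts and 55.8, 61.2 and 63.2 CPM in wild type (1.30-fold lower, log2 -0.38 ± 0.07; edgeR adjusted p = 3e-04). Parp14, an ADP-ribosyltransferase induced by interferon, was at 5.17, 4.26 and 4.66 CPM against 7.71, 6.38 and 6.77 CPM (log2 -0.60 ± 0.14; edgeR adjusted p = 0.0015). Neither gene's genotypes overlapped. Beside Parp14 on chromosome 16, the interferon-responsive pair Dtx3l and Parp9 was also called lower (log2 -0.84 and -0.75). Of the 10 tested neighbours of Parp14, 4 were called lower and 2 higher, against 24% and 26.5% of all genes tested. Samhd1, a dNTP-cleaving enzyme that restricts retroviruses, was at 42.3, 40.0 and 51.6 CPM against 51.5, 49.9 and 53.3 CPM. Its groups overlapped, and the call (log2 -0.24 ± 0.08; edgeR adjusted p = 0.018) was lost without knockout replicate 1, knockout replicate 2 or wild-type replicate 3, with adjusted p up to 0.15.

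Zc3hav1, encoding the CpG-rich RNA-binding antiviral protein ZAP, was the effector called higher, at 61.2, 66.7 and 69.9 CPM against 53.0, 55.9 and 57.8 CPM (1.18-fold, log2 0.24 ± 0.07; edgeR adjusted p = 0.0044). Adar, the adenosine deaminase that edits double-stranded RNA and keeps self RNA from being sensed, was at 85.0, 81.3 and 71.5 CPM against 79.8, 69.8 and 76.0 CPM and was not called (log2 0.08 ± 0.07; edgeR adjusted p = 0.37); its locus overlaps that of Chrnb2. Ifit2, an interferon-induced RNA-binding protein gene, was at 0.913, 1.47 and 1.84 CPM against 1.11, 1.00 and 0.838 CPM (log2 0.41 ± 0.29; edgeR adjusted p = 0.25). The other 4 effectors, all strongly interferon-induced genes, did not pass the low-count filter. Ifit1 had 7 counts over the libraries of each genotype, Ifit3 had 3 in the knockout and 4 in wild type, and Usp18, which removes ISG15 from proteins, had 10 and 14. Rsad2, encoding viperin, had 12, 13 and 6 counts in the knockout and 2, 3 and 4 in wild type (ratio 2.95, 95% exact Poisson interval 1.37 to 7.06, counting error only), and with no low-count filter edgeR called it higher (adjusted p = 0.023).

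The antigen presentation genes split in direction. B2m, the light chain of major histocompatibility class I molecules, was at 14.7, 17.1 and 19.7 CPM in knockout lines and at 11.3, 14.9 and 13.1 CPM in wild type (log2 0.40 ± 0.12; edgeR adjusted p = 0.0086). Its groups overlapped by 1 library on each side, and the call was lost without wild-type replicate 1 (adjusted p = 0.089). Psmb8, an interferon-induced subunit of the immunoproteasome, had 8, 13 and 5 counts against 39, 12 and 33, or 0.406, 0.465 and 0.613 CPM against 1.60, 1.50 and 2.13 CPM (3.72-fold lower, log2 -1.90 ± 0.30; edgeR adjusted p = 3.6e-05). The knockout libraries were all below the wild-type libraries, and only 1 of them was above the CPM of the low-count filter. An annotated gene, Gm20496, overlaps Psmb8 on the other strand, and whether the counting used strand is not stated. Psmb9, a second immunoproteasome subunit, was at 1.17, 1.61 and 1.23 CPM against 1.76, 1.63 and 1.74 CPM (log2 -0.32 ± 0.24; edgeR adjusted p = 0.28), and the peptide transporter gene Tap1 at 5.17, 5.33 and 7.60 CPM against 5.33, 5.75 and 4.96 CPM (log2 0.12 ± 0.16; edgeR adjusted p = 0.56). Psmb9 and Tap1 overlap in the annotation, so their reads cannot be wholly separated here. Of 25 tested neighbours of these 3 genes on chromosome 17, 7 were called higher and 3 lower, against 26.5% and 24% of all genes tested.

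**Figure D4:**
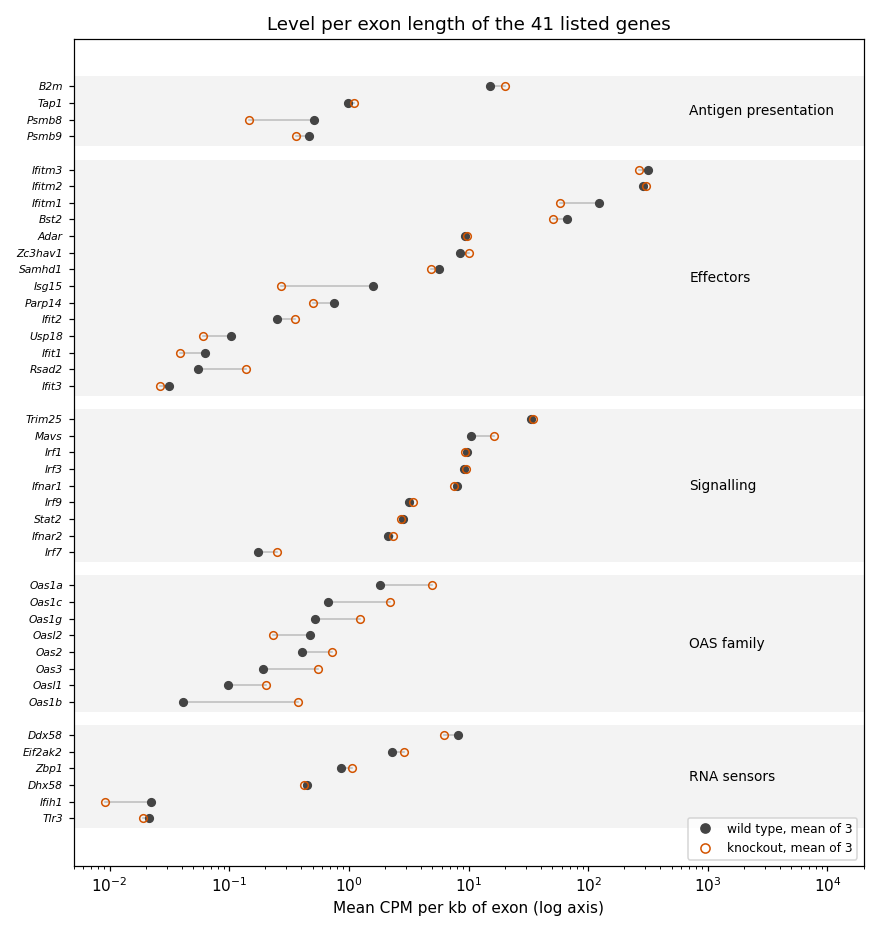
Mean CPM per kb of exon (x axis, log scale) of all 41 genes by role, in wild type (filled grey) and knockout (open orange), each the mean of 3 libraries. Ifitm2 and Ifitm3 lie highest at 266 to 318 CPM per kb, the signalling genes except Irf7 lie between 2.13 and 34.9, and Ifih1, Tlr3 and Ifit3 lie lowest.

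The motif count over all promoters gives the setting for the sequences above. RefSeq held a promoter entry for 35 of the 41 genes, and 16 of the 35 (45.7%) had at least 1 match to GAAANNGAAA on either strand, against 1079 of 27025 genes (3.99%). A match to TTCNNNGAA, the letters of the gamma-activated site, was present in 11 of the 35 (31.4%, against 9.55% of all genes), and the motifs overlapped in Bst2 and Ifitm3. Of the 12 tested genes with the ISRE-type letters, 6 were called higher, 3 lower and 3 not called, with a median log2 difference of 0.17. Over all genes tested, 26.5% were called higher and 24% lower. The 6 higher genes were Oas1a, Oas1c, Oas1g and Oas3, all from the same cluster, with Eif2ak2 and B2m. This count therefore largely repeats the OAS result above, and a link between motif and direction was not tested. Of the 17 tested genes with an entry but without these letters, 2 were called higher, 4 lower and 11 not called, with a median of 0.07. Of the 11 with the TTCNNNGAA letters, 2 were called higher and 3 lower. Genes called higher and genes called lower were thus found both with and without each motif.

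Matches to miR-34a were rare among these transcripts. The mature miRNA (RefSeq, GRCm38.p6, chr4:150068473-150068494, plus strand) is shown with its seed, bases 2 to 8, in capitals.
mmu-miR-34a-5p: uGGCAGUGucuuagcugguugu
Of the 33 tested genes, 1 (3.03%) had a perfect match to the seed in its annotated 3′ UTR, against 2290 of 13402 tested genes with such a UTR (17.1%). That gene was Adar, whose site begins at base 1456 of a 2271-base UTR and is printed with the match, extended by the A opposite the first miRNA base, in capitals.
Adar: cccaccctctggccCACTGCCAacagca
Adar was not called, and none of the 17 called genes had a perfect seed match. A shorter match, to bases 2 to 7 followed by that A, was present in Ddx58, Mavs and Parp14, of which Mavs was called higher and Ddx58 and Parp14 lower. Over all tested genes, 673 of the 2290 with a seed match were called higher and 574 lower, and their median log2 difference was 0.03 against 0.00 without one. For comparison, 3905 of all 14717 genes tested were called higher (26.5%) and 3528 lower (24%). A link between seed match and direction was not tested.

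A second list held 158 further genes of the same pathway, of which 157 were matched and 109 tested, with 30 called higher and 33 lower (57.8% called, against 50.5% of all genes tested; DESeq2 called 18 higher). None of the 21 interferon genes was tested: 14 had 0 counts in all 6 libraries, Ifnb1 among them, and the highest had 6 counts. Of 13 receptor and JAK-STAT genes, 5 were called higher (38.5%, against 26.5% of all genes tested) and 3 lower (23.1%, against 24%). Socs3, a feedback inhibitor of JAK kinases, was at 138 ± 7.05 CPM in knockout lines, against 229 ± 14.1 CPM in wild type (SD, n = 3 each; log2 -0.72; edgeR adjusted p = 4.2e-09). The kinase gene Jak1 was higher (81.8 ± 2.67 against 66.6 ± 0.943 CPM; log2 0.30, edgeR adjusted p = 0.00024), as was the interferon lambda receptor gene Ifnlr1 (2.55 ± 0.505 against 1.11 ± 0.0153 CPM; log2 1.17, edgeR adjusted p = 0.00046).

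Of 14 tested sensors and adaptors on this list, 3 were called higher (21.4%, against 26.5% of all genes tested) and 5 lower (35.7%, against 24%). Abce1, the inhibitor of the RNase L that OAS products activate, was at 139 ± 16.6 CPM in knockout lines, against 205 ± 8.61 CPM in wild type (log2 -0.57; edgeR adjusted p = 4.3e-06). The inflammasome sensor Nlrp3 had 52 counts in the knockout and 5 in wild type and passed the filter through its knockout libraries alone (log2 3.07; edgeR adjusted p = 4.8e-05), and the adaptor Ticam1 was at 8.66 ± 0.657 against 6.08 ± 0.362 CPM (log2 0.54; edgeR adjusted p = 0.0013). The DNA sensor Cgas was at 1.75 ± 0.0976 against 0.943 ± 0.176 CPM (log2 0.85; edgeR adjusted p = 0.0086), while its partner Tmem173, encoding STING, was not called (2.20 ± 0.534 against 1.89 ± 0.535 CPM; edgeR adjusted p = 0.48). Of 20 tested kinases and transcription factors 7 were called higher (35.0%, against 26.5% of all genes tested) and 3 lower (15.0%, against 24%). Nlrx1, encoding a mitochondrial protein that binds MAVS, rose from 5.72 ± 0.591 to 10.5 ± 1.46 CPM (log2 0.94; edgeR adjusted p = 7.9e-06), in the same direction as Mavs. Irf5, a further interferon regulatory factor, was called higher (2.71 against 1.37 CPM; log2 0.91, edgeR adjusted p = 0.0017). Tradd, an adaptor in MAVS and TNF receptor signalling, was higher by 0.75 on the log2 scale and Nfkb1 by 0.29.

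Other interferon-stimulated genes were called in both directions, with 9 of 36 tested called higher (25.0%, against 26.5% of all genes tested) and 14 lower (38.9%, against 24%). Xaf1, a pro-apoptotic interferon-induced gene, was at 14.8 ± 1.06 CPM in knockout lines, against 2.45 ± 0.571 CPM in wild type (5.95-fold, log2 2.57; edgeR adjusted p = 3.3e-11). Gbp2, an interferon-induced GTPase gene, was at 3.11 ± 0.187 against 14.5 ± 1.13 CPM (4.69-fold lower, log2 -2.23; edgeR adjusted p = 4.1e-11). Sp110 had 277 counts in the knockout and 12 in wild type and passed the filter through its knockout libraries alone (log2 4.25; edgeR adjusted p = 3.2e-10), and Mx1 had 4 and 2 counts. Among 10 genes that cut, process or bind RNA, 2 were called higher and 5 lower, against 26.5% and 24% of all genes tested. Whether these 10 genes differ from all genes was not tested. The lower genes included Zcchc3 (49.4 ± 0.431 against 72.9 ± 1.66 CPM, log2 -0.56), an RNA-binding cofactor of RIG-I-like sensors. They also included the miRNA-processing nucleases Dicer1 (log2 -0.33) and Drosha (log2 -0.24). Among 16 further antigen presentation genes 4 were called higher (25.0%, against 26.5% of all genes tested) and 3 lower (18.8%, against 24%). The class I heavy chain genes H2-D1 (16.6 ± 1.68 against 8.35 ± 0.58 CPM; log2 1.01) and H2-K1 (22.4 ± 1.59 against 14.8 ± 0.416 CPM; log2 0.60) were higher, in the direction of their partner B2m, and the third immunoproteasome subunit Psmb10 was lower (12.0 ± 0.772 against 21.4 ± 0.802 CPM; log2 -0.86), in the direction of Psmb8. H2-D1 and H2-K1 are close relatives of each other and of further class I genes, so their reads may be shared.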

How the data were processed

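Poly(A) RNA-seq was available for 6 lines, 3 per genotype. The deposited values are raw counts per gene, not normalized; per the submitters' processing notes, TopHat2 2.0.11, featureCounts 1.4.5 and mm10 were used. Whether counting used strand or multi-mapping reads is not stated in those sources. Of 42290 rows, 902 are repeat families (5.4 to 6.16% of counts), left out. Another table has 6 columns that match no label and were not used. Names and loci came from GENCODE M21 (40254 genes matched).

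Genes were tested with edgeR 4.0.16 (TMM, filterByExpr with minimum count 10, quasi-likelihood F test, two-sided, Benjamini-Hochberg over 14717 genes; R 4.3.3), a procedure tested on simulated data. DESeq2 1.42.0, limma 3.58.1 voom, other scalings and filters, a replicate block, removal of GC trends and leaving out each library were alternatives. The labels call the lines independent. The p-values set the difference between genotypes against the spread between these lines. Members and lists (pathway; pluripotent, fibroblast and leukocyte markers) were chosen with earlier results of these data known. All 41 members are named, with values per library at 1 CPM or more or a call; of the pathway list, up to 3 genes per role with the smallest p, and Tmem173, Cgas, Ifnb1 and Mx1; a further gene that the rule names is not reported here. Other genes, among them neighbours, were named after their values were seen.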

Additional observations from a re-analysis of the deposited data

How the results depend on the processing

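Of the 17 called genes of the list, 14 kept their call in every one of the 14 alternatives that tested them, and none of the 17 changed sign. Isg15 was tested in 13 of them, since it failed the filter of 1 CPM in 3 libraries. Eif2ak2, Samhd1 and B2m lost theirs in at least 1, and Ifitm3 gained one in 6. Leaving out each library gave 7 to 11 genes called higher and 7 to 9 called lower. Of the 16 uncalled genes, 7 changed sign in at least 1 alternative. With library GC trends removed the log2 difference was -0.08 for Irf3, -0.04 for Ifitm2, -0.02 for Adar and -0.01 for Tap1, and with limma voom it was 0.00 for Stat2. Without 1 library at a time it ran from -0.10 to 0.01 for Irf1, -0.01 to 0.10 for Irf3, -0.02 to 0.20 for Irf9, -0.10 to 0.06 for Stat2, -0.07 to 0.27 for Ifitm2 and -0.01 to 0.20 for Tap1. Of the further pathway genes, DESeq2 called 18 higher against 30 with edgeR; the cause was not tested. With no low-count filter, or without wild-type replicate 2 or 3, Oas1b and Rsad2 were tested and called higher; in the latter cases they passed the filter through knockout libraries alone, so those calls support nothing.

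The extraction protocol speaks of 3 pairs of lines but does not tie them to the replicate numbers. Lines with the same replicate number had deviations that correlated at 0.088, -0.020 and 0.110, and only those of numbers 1 and 3 correlated best with their own number, so they were taken to share only a number. With the replicate block, 9 genes of the list were called higher and 9 lower (Ifitm3 gained a call, edgeR adjusted p = 0.0033), and 4055 and 3779 of all genes tested.

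Genes below about 1 CPM, such as Isg15, Psmb8, Ifih1 and the Ifit genes, rest on few counts, and intervals cover counting error only.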
